A study of Mus musculus with 12 samples.

Results

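The transcripts of 10 genes that act at cell cycle checkpoints were followed in mouse liver with and without the clock factor BMAL1. The genes were Cdkn1a, Gadd45a, Gadd45b, Gadd45g, Wee1, Ccnd1, Ccng1, Myc, Mdm2 and Trp53. They were chosen by symbol out of 22322 gene symbols, and for each the transcript with the highest mean level was read. The 10 symbols had 21 of the 46585 transcripts in the deposited values. Of the 10 genes, 9 reached a mean of 1 RPKM (reads scaled to transcript length and sequencing depth) in at least 1 group and were tested together with 10799 such genes in all. Gadd45b stayed below that level and is described without a call.

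Liver RNA was sequenced from 4 groups of 3 C57BL/6 mice, given as 8 weeks old, in 12 libraries. Wild-type (WT) mice carried a floxed Bmal1 gene on both chromosomes (Bmal1 flox/flox). Knockout (KO) mice were the offspring of that line crossed to mice with CRE recombinase under a liver-specific promoter, so that the exons for the DNA-binding domain of BMAL1 were deleted in the liver. Livers were taken at circadian time 0 h (CT0), when the lights would have come on, or 12 h later (CT12), after 2 days of darkness for all mice. The sources name CRE only in the KO line, and what the enzyme does by itself cannot be told apart from what the lost exons do. The sample titles number 3 libraries in each group, and the published methods name 3 KO and 3 WT mice for these times. The treatment text speaks of 2 mice per genotype and time. The p-values below measure the spread between these libraries.

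A dividing cell passes checkpoints at which cyclin-dependent kinases (CDKs) are held back until growth signals are in and DNA damage is repaired. The transcription factor p53 (Trp53) is the best known source of such a stop, and it acts through targets such as the CDK inhibitor p21 (Cdkn1a), while MDM2 marks p53 for degradation. The clock reaches the same machinery: Wee1, a kinase that blocks CDK1 before mitosis, is a textbook target of BMAL1 and CLOCK, and Cdkn1a is known to be repressed by REV-ERB proteins. Most cells of an adult liver are outside the cell cycle.

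The RefSeq promoter table (GRCm38.p6) held windows for 7 of the 10 genes, with 2 separate windows for Cdkn1a, and the 250 bases before the start were searched on both strands. Wee1, Ccnd1 and Myc were not in the table. The E-box CACGTG, the letters BMAL1 and CLOCK are known to bind, was found in the windows of Gadd45b and Gadd45g, and in 6.02% of all 32851 windows. The variant CACGTT (3.85% of all windows), the core AGGTCA of the ROR and REV-ERB element (14.0%) and the D-box TTATGTAA (0.819%) were in none of the 8 windows. A pair of p53 decamers with no spacer and at most 1 mismatch, which is 20 bases long, was looked for after the windows had been read. It occurred in 19 of the 32851 windows (0.0578%), and 2 of these were windows of Cdkn1a and Ccng1. The Cdkn1a window with the pair starts 2790 bases before the other one. The stretches with a match are shown because they are the only matches among these genes, with the matched letters in capitals. A match describes letters and not a bound site, and bases farther from the start were not searched.
Cdkn1a, chr17:29090915-29090960, plus strand, p53 decamer pair 51 bases before the start: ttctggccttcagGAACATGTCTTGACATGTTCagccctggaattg
Ccng1, chr11:40755449-40755494, minus strand, p53 decamer pair 195 bases before the start: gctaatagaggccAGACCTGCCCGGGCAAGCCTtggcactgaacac
Gadd45b, chr10:80929886-80929931, plus strand, E-box 185 bases before the start: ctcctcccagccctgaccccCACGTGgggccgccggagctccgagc
Gadd45g, chr13:51846513-51846558, plus strand, E-box 142 bases before the start: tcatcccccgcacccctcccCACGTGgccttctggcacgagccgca

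The libraries held between 11460000 and 19020000 reads, as recovered from the low values. Arntl, the gene of BMAL1, had 15.7 to 16.3 RPKM in WT and 5.73 to 7.45 RPKM in KO at CT0, and 0.68 to 1.26 RPKM in WT and 3.59 to 4.37 RPKM in KO at CT12. These values cover a whole transcript and not the floxed exon, so they do not check the deletion. All 6 hepatocyte markers, albumin (Alb) among them, were present in every library, with a summed level of 24100 to 48900 RPKM. Fold changes below are differences of log2(RPKM + 1) with their standard error (SE), and the adjusted p-values come from limma over all tested genes with a threshold of 0.05. This scale understates the change of genes near 1 RPKM, so ratios of mean RPKM are given as well. In whole liver, less RNA per cell and fewer cells of a type cannot be told apart.

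**Figure D1:**
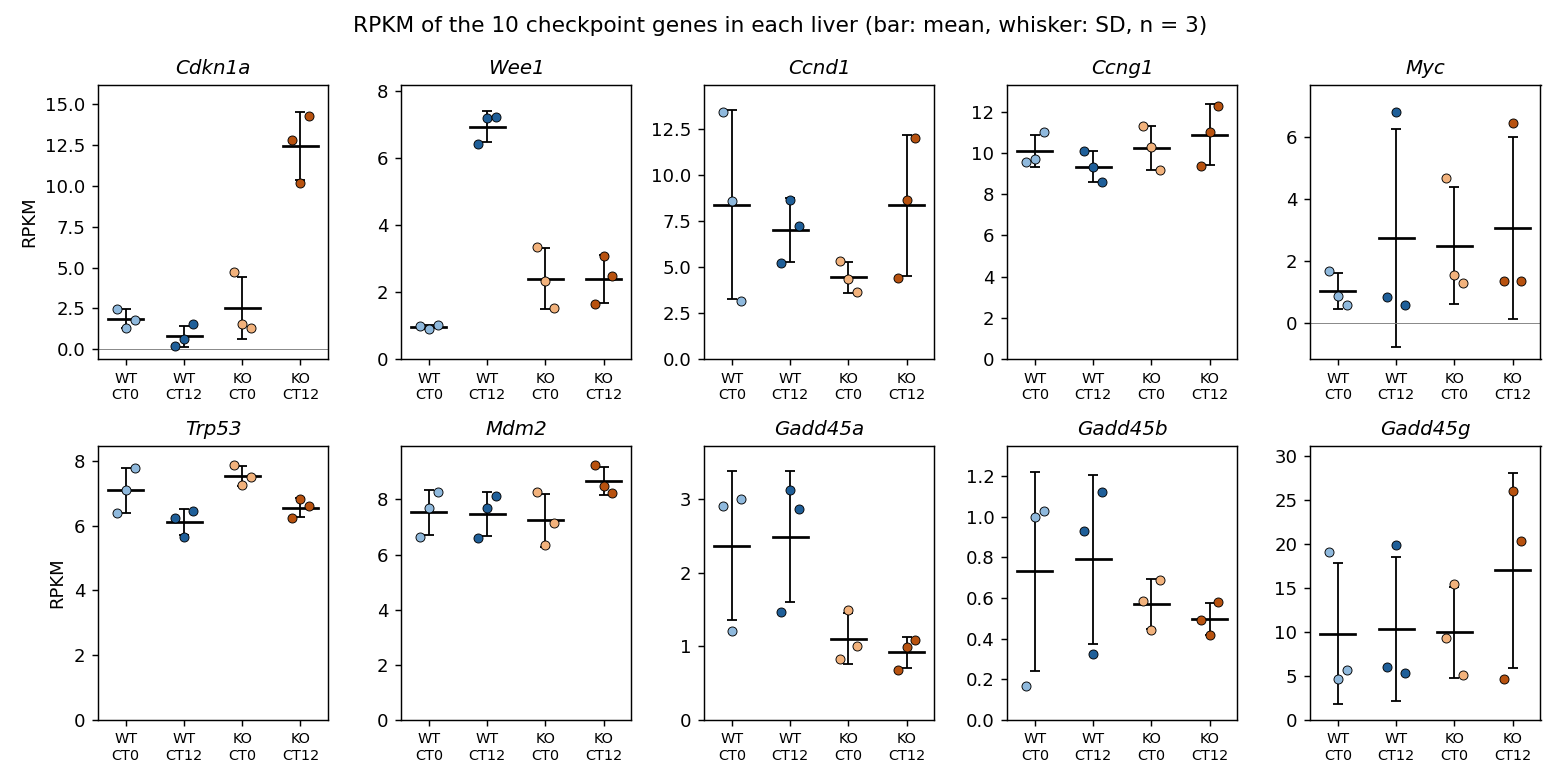
RPKM of each of the 10 genes (y axis, linear, its range differs between panels) in the 3 livers of each group (x axis). Points are livers, the bar is the mean and the whisker the SD; Cdkn1a stands apart in KO at CT12 (10.2 to 14.3 RPKM) and Wee1 in WT at CT12 (6.42 to 7.22 RPKM).

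Cdkn1a (ENSMUSG00000023067, NCBIM37 chr17:29227924-29237667, plus strand) encodes p21, which binds CDK complexes and stops the cell before DNA synthesis. At CT12 its level was 0.227, 0.606 and 1.52 RPKM in the 3 WT livers and 12.8, 10.2 and 14.3 RPKM in the 3 KO livers. The lowest KO liver was thus far above the highest WT liver. The WT values rested on 7, 17 and 39 reads and the KO values on 353, 259 and 373 reads. Cdkn1a was 15.9-fold higher in KO by the means, 12.4 ± 2.05 RPKM against 0.785 ± 0.666 RPKM (SD, n = 3), and its log2 fold change was 2.97 (SE 0.33, limma adjusted p = 0.00013). By size this was the 9th of the 753 rises called at CT12.

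At CT0 the same gene had 2.47, 1.32 and 1.8 RPKM in WT and 4.71, 1.54 and 1.32 RPKM in KO. The groups overlapped, with 1 KO liver (replicate 1) above all others. The log2 fold change was 0.19 (95% interval -0.53 to 0.92, limma adjusted p = 0.85), and without that liver it was -0.22. The difference between genotypes at CT12 exceeded that at CT0 by 2.77 (SE 0.47, interaction in limma, adjusted p = 0.012), the 4th largest of 116 positive interactions.

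Over time, Cdkn1a rose 4.93-fold from CT0 to CT12 in KO by the means (log2 fold change 2.05, SE 0.33, limma adjusted p = 0.012), and the 2 groups of KO livers did not overlap. When only the 6 KO libraries were fitted, the same difference had an adjusted p of 0.058. In WT the value went the other way, at -0.73 (SE 0.33, limma adjusted p = 0.18), and WT livers at the 2 times overlapped. Averaged over both times Cdkn1a was higher in KO by 1.58 (SE 0.23, limma adjusted p = 0.00096). Averaged over both genotypes the time difference was 0.66 (limma adjusted p = 0.075), and it passed the threshold at 0.86 (adjusted p = 0.0096) without KO CT0 replicate 1. Of the genes of the REV-ERB proteins, Nr1d1 and Nr1d2 were called lower in KO at CT0. At CT12 Nr1d2 was called lower and Nr1d1 was not called. A part of REV-ERB proteins in the level of Cdkn1a was not tested.

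The 3 deposited transcripts of Cdkn1a are 748 to 1910 bases long and overlap, so the same reads can count on several of them. At CT12 their log2 fold changes between KO and WT were 2.97, 2.89 and 2.83 when each transcript was tested on its own, and all 3 passed the threshold. The call therefore did not hang on which of the transcripts was read.

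Wee1 (ENSMUSG00000031016, NCBIM37 chr7:117265864-117285626, plus strand) encodes the kinase that keeps CDK1 inactive until a cell is ready for mitosis. In WT it had 0.981, 0.894 and 1.01 RPKM at CT0 and 6.42, 7.19 and 7.22 RPKM at CT12. These groups were tight and far apart. Wee1 rose 7.23-fold in WT between the times (log2 fold change 2.02, SE 0.19, limma adjusted p = 4.5e-05), the 22nd of 401 rises by size.

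In KO the level of Wee1 was 3.35, 2.32 and 1.53 RPKM at CT0 and 1.64, 3.07 and 2.49 RPKM at CT12. Both KO groups had a mean of 2.4 RPKM, lay between the WT levels and overlapped each other. The time difference in KO was 0.01 with a 95% interval from -0.4 to 0.43 (limma adjusted p = 0.98). At CT12 Wee1 was 2.89-fold lower in KO than in WT (log2 fold change -1.24, SE 0.19, limma adjusted p = 0.0013), without overlap. At CT0 its mean was 2.5-fold that of WT, also without overlap, but the difference of 0.76 (SE 0.19) had an adjusted p of 0.071 in limma. Without KO CT0 replicate 3, the lowest of the KO livers at that time, it was 0.95 with an adjusted p of 0.032. The interaction was -2.0 (SE 0.27, limma adjusted p = 0.0031). Averaged over both times, the WT and KO levels of Wee1 differed by -0.24 (95% interval -0.54 to 0.05), since the differences at CT0 and CT12 had opposite signs.

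The order of Cdkn1a and Wee1 differed between groups. In WT at CT12 the ratio of Cdkn1a to Wee1 RPKM was 0.0354, 0.0843 and 0.211 in the 3 livers. In KO at CT12 it was 7.8, 3.33 and 5.74. At CT0 the ratio was 1.48 to 2.51 in WT and 0.667 to 1.4 in KO. The inhibitor of the early checkpoint and the kinase of the late one therefore stood in opposite order in WT and KO livers at CT12, and close to each other at CT0. Both values are per length of transcript.

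**Figure D2:**
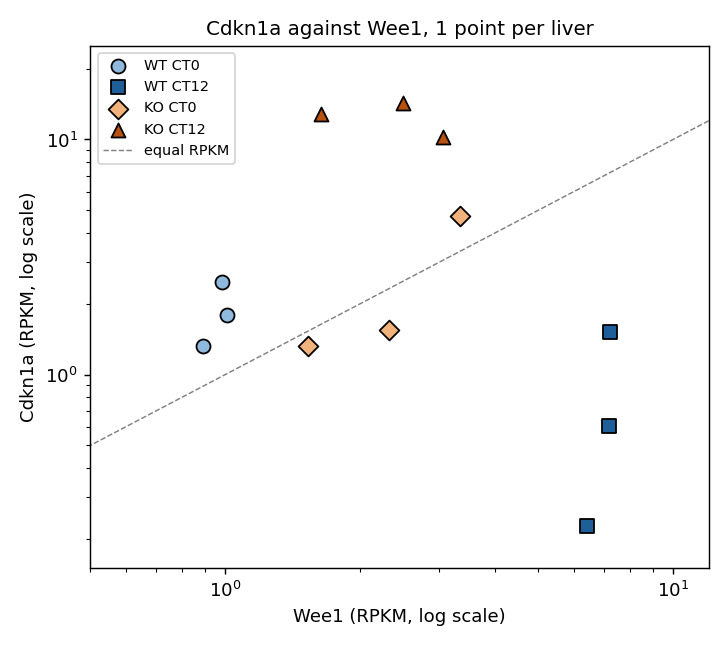
Level of Cdkn1a against that of Wee1 (both in RPKM, log axes), 1 point per liver, with the dashed line at equal RPKM. The WT livers at CT12 lie far below the line (ratio 0.0354 to 0.211) and the KO livers at CT12 above it (3.33 to 7.8).

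Of the 9 tested genes, Cdkn1a was the 1 called higher and Wee1 the 1 called lower in KO at CT12, where 6.97% and 3.49% of all tested genes were called in these directions. At CT0 none of the 9 was called, beside 1.02% of all genes higher and 0.843% lower in limma. Before adjustment, 2 of the 9 (Wee1 and Gadd45a) were under 0.05 at CT0 in limma, and an ordinary linear model gave 1 (Wee1). Wee1 was the 1 gene called over time in WT (3.71% of all genes higher and 7.88% lower at CT12). In KO it was Cdkn1a (1.1% higher and 1.32% lower). The interaction was called for Cdkn1a, with a positive sign (1.07% of all genes), and for Wee1, with a negative sign (0.417%). The median log2 fold change of the 9 genes was 0.08 at CT0 and 0.19 at CT12 between genotypes, beside 0.011 and 0.08 over all tested genes. Averaged over both times, Cdkn1a was called higher and Gadd45a lower in KO (7.44% and 4.03% of all genes), and averaged over both genotypes Wee1 was called higher at CT12 (6.08% higher and 10.5% lower).

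**Figure D3:**
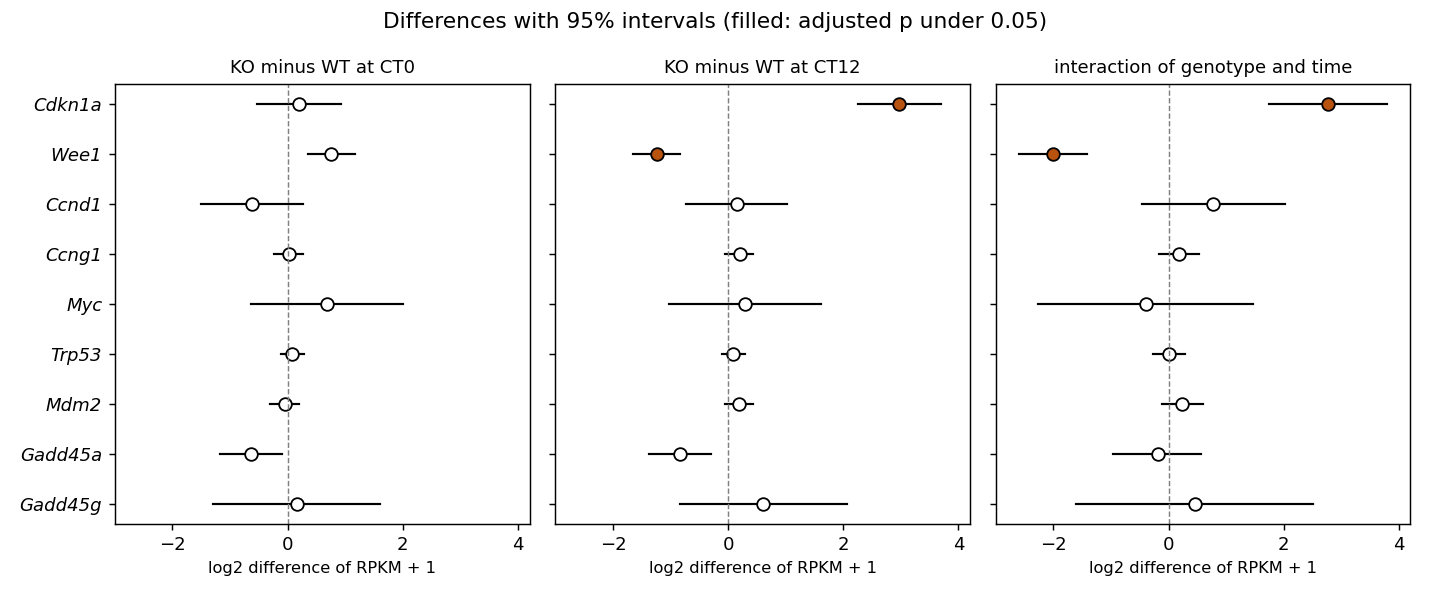
Log2 difference of RPKM + 1 (x axis) of the 9 tested genes between KO and WT at CT0, at CT12, and its change between the times (interaction); points are estimates, lines 95% intervals, and filled points have an adjusted p under 0.05. Cdkn1a (2.97) and Wee1 (-1.24) are filled at CT12, none at CT0.

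The GADD45 proteins are small stress sensors that bind p21, PCNA and the kinase MTK1. Gadd45a (ENSMUSG00000036390, NCBIM37 chr6:66985090-66987451, minus strand), a p53 target, had 2.9, 1.2 and 3.0 RPKM in WT and 0.823, 1.49 and 0.999 RPKM in KO at CT0. At CT12 it had 1.47, 3.12 and 2.87 RPKM in WT and 0.68, 0.988 and 1.08 RPKM in KO. The genotypes overlapped at CT0 and not at CT12. Averaged over both times Gadd45a was lower in KO (log2 fold change -0.74, SE 0.17, limma adjusted p = 0.017), the 127th of 435 falls by size. At CT12 alone the difference was -0.83 (SE 0.25, limma adjusted p = 0.052), and it passed the threshold without WT CT12 replicate 1 (-1.06, adjusted p = 0.024) or without WT CT0 replicate 2 (adjusted p = 0.023). At CT0 it was -0.64 (limma adjusted p = 0.25). The interaction was -0.19 with a 95% interval from -0.96 to 0.57, so neither equal nor unequal differences at the 2 times were shown. KO levels rested on 12 to 26 reads per liver. Gadd45a shares 337 exonic bases with the opposite-strand gene E230016M11Rik, and the library kit does not mark strand, so reads from these bases cannot be told apart.

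Gadd45b (ENSMUSG00000015312, NCBIM37 chr10:80392836-80394949, plus strand) was scarce, at 0.167, 0.997 and 1.03 RPKM in WT and 0.583, 0.444 and 0.689 RPKM in KO at CT0. At CT12 it had 0.93, 0.323 and 1.12 RPKM in WT and 0.493, 0.418 and 0.578 RPKM in KO. The groups overlapped at both times, and 4 to 24 reads stood behind each value. In a fit without the filter on low values its difference at CT12 was -0.23 (95% interval -0.72 to 0.25, limma adjusted p = 0.65).

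Gadd45g (ENSMUSG00000021453, NCBIM37 chr13:51942047-51943837, plus strand) was the most abundant of the family, and its level was uneven between livers. It had 19.0, 4.66 and 5.64 RPKM in WT at CT0, 5.96, 19.8 and 5.29 in WT at CT12, 9.33, 15.4 and 5.13 in KO at CT0, and 4.6, 26.0 and 20.3 RPKM in KO at CT12. Livers at about 5 RPKM occurred in every group. The genotype difference averaged over both times was 0.38 with a 95% interval from -0.64 to 1.41 (limma adjusted p = 0.67).

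Trp53 (ENSMUSG00000059552, NCBIM37 chr11:69393861-69405375, plus strand), which encodes p53 itself, was at 6.39, 7.1 and 7.79 RPKM in WT and 7.88, 7.26 and 7.49 RPKM in KO at CT0. At CT12 it was at 6.23, 5.65 and 6.44 RPKM in WT and 6.23, 6.82 and 6.61 RPKM in KO. The genotypes overlapped at both times. Their averaged difference was 0.08 with a 95% interval of -0.06 to 0.23 (limma adjusted p = 0.46), beside 1.58 for Cdkn1a. At CT12 alone the Trp53 difference was 0.09 (95% interval -0.11 to 0.29), beside 2.97 for Cdkn1a. The time difference averaged over both genotypes was -0.18 (95% interval -0.32 to -0.04, limma adjusted p = 0.076). All of these are RNA levels. The p53 protein was not measured, and its part in the level of Cdkn1a was not tested.

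Mdm2 (ENSMUSG00000020184, NCBIM37 chr10:117125944-117147814, minus strand), the ubiquitin ligase for p53 and itself a p53 target, had 6.33 to 8.26 RPKM in the 9 livers outside KO at CT12. In KO at CT12 it had 9.24, 8.49 and 8.25 RPKM, against 6.59, 7.68 and 8.14 RPKM in WT. These groups only just failed to overlap. The difference was 0.19 (95% interval -0.06 to 0.44, limma adjusted p = 0.33).

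Ccng1 (ENSMUSG00000020326, NCBIM37 chr11:40562054-40568813, minus strand), cyclin G1, is an atypical cyclin and a p53 target that recruits a phosphatase to MDM2. It had 8.58 to 12.3 RPKM over all 12 livers. Its difference between genotypes at CT12 was 0.2 (95% interval -0.05 to 0.44, limma adjusted p = 0.31), and averaged over both times it was 0.11 (95% interval -0.07 to 0.28). For Cdkn1a, whose upstream window also held the p53 decamer pair shown above, the 95% interval at CT12 was 2.25 to 3.69. The difference between the 2 genes was not tested, and neither was a part of p53 in it. The transcript read for Cdkn1a starts at NCBIM37 29230717, downstream of the start of another of its transcripts at 29227924.

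Ccnd1 (ENSMUSG00000070348, NCBIM37 chr7:152115836-152125774, minus strand) encodes cyclin D1, which activates CDK4 and CDK6 when growth factors are present. It had 13.4, 8.6 and 3.13 RPKM in WT and 5.33, 4.34 and 3.64 RPKM in KO at CT0. At CT12 it had 5.19, 8.61 and 7.24 RPKM in WT and 4.39, 8.62 and 12.0 RPKM in KO. The genotypes overlapped at both times, with limma adjusted p-values of 0.54 at CT0 and 0.86 at CT12. The 95% interval at CT0 reached from -1.5 to 0.26. Ccnd1 shares 818 exonic bases with the opposite-strand gene Oraov1, which had 1.86 to 4.16 RPKM and was not called in any comparison.

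Myc (ENSMUSG00000022346, NCBIM37 chr15:61816946-61821929, plus strand) encodes a growth-promoting transcription factor that can repress Cdkn1a. It had 1.69, 0.866 and 0.585 RPKM in WT and 4.68, 1.54 and 1.29 RPKM in KO at CT0. At CT12 it had 0.851, 6.81 and 0.573 RPKM in WT and 1.37, 6.47 and 1.37 RPKM in KO. Single livers, KO CT0 replicate 1 and replicate 2 of both groups at CT12, were well above the rest of their groups. The averaged genotype difference was 0.49 (95% interval -0.44 to 1.42, limma adjusted p = 0.53). KO CT0 replicate 1 was also the liver with the most Cdkn1a (4.71 RPKM) and Wee1 (3.35 RPKM) of its group. It also had 9.53 RPKM of the replication helicase gene Mcm6, beside 3.73 and 3.82 RPKM in the other livers of its group. Of other proliferation genes, Mcm2 (3.98 RPKM) and Pcna (24.8 RPKM) were highest of the group in that liver too. Mki67 was lowest there, at 0.739 RPKM beside 0.878 and 0.84 RPKM.

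The 9 tested genes fell into those with steady and those with uneven levels between replicate livers. The SD within groups on the log2 scale was 0.08 for Trp53, 0.13 for Ccng1 and 0.14 for Mdm2, at or under the median of 0.16 over all tested genes. It was 0.26 for Wee1, 0.35 for Gadd45a, 0.48 for Cdkn1a and 0.59 for Ccnd1. Myc (0.89) and Gadd45g (0.99) each exceeded 99.7% of all tested genes. Within 1 group, Myc differed up to 11.9-fold between livers and Gadd45g up to 5.66-fold. At CT12 the 95% intervals between genotypes were correspondingly wide for these genes, from -1.02 to 1.61 for Myc and from -0.84 to 2.06 for Gadd45g, against -0.73 to 1.03 for Ccnd1.

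**Figure D4:**
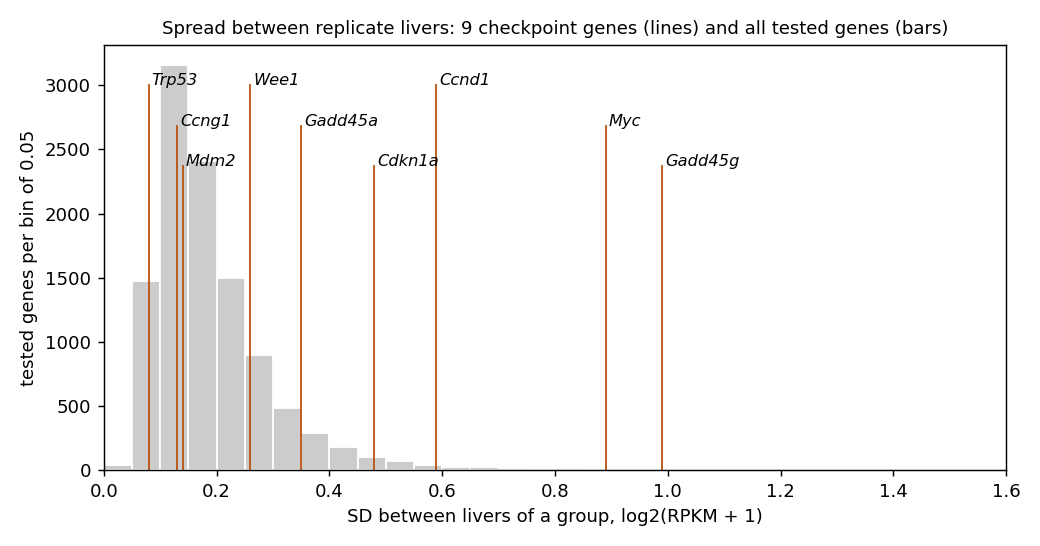
SD between livers of a group on the log2(RPKM + 1) scale (x axis) for all 10799 tested genes (bars, number of genes per bin of 0.05) and for the 9 checkpoint genes (vertical lines, whose heights only separate the names). Trp53 (0.08), Ccng1 and Mdm2 stand in the bulk, Myc (0.89) and Gadd45g (0.99) in the far tail.

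The genes with the pattern most like that of a checkpoint gene were sought by Pearson's r of log2 values over the 12 libraries, whose points share the group structure of the 4 groups and differ in depth. For Wee1 they were Per3 (r = 0.963), Nmrk1 (0.962) and Tef (0.945). Per3, a clock gene, had 0.34 and 7.0 RPKM in WT at CT0 and CT12 and 1.16 and 1.75 RPKM in KO (means of 3). Tef, a clock-controlled transcription factor, had 8.61 and 45.7 RPKM in WT and 17.5 and 23.4 RPKM in KO. Like Wee1, both had their KO means between the WT means of the 2 times. For Cdkn1a the nearest were Nat10 (0.897), Fam13b (0.897) and Clic4 (0.896). All 3 had their highest mean in KO at CT12 and their lowest in WT at CT12, over a narrower range than Cdkn1a (Nat10, 6.22 to 9.44 RPKM). For Gadd45a the nearest was Irf2 (0.906), and for Trp53 it was Rxrg (0.949).

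Beyond these 10, 99 genes of the same pathways were listed, of which 98 had values and 63 were tested. At CT12, 4 of the 63 were higher and 1 lower in KO, which is not above the 6.97% and 3.49% of all tested genes. With 1 library left out the 5 calls became 1 to 6, with 1 without KO CT12 replicate 2, 2 without WT CT12 replicate 2 or 3, and 3 without KO CT12 replicate 1 or 3. The largest was Ccng2, cyclin G2, an atypical cyclin linked to growth arrest, with 2.24, 2.76 and 3.13 RPKM in WT and 5.53, 5.73 and 8.71 RPKM in KO (log2 fold change 1.03, SE 0.16, limma adjusted p = 0.0015). Aen, a p53-induced nuclease of apoptosis, had 3.29, 4.06 and 2.76 RPKM in WT and 5.36, 7.9 and 5.77 RPKM in KO (0.74, adjusted p = 0.034). Neither group pair overlapped. The kinases Cdk6 (0.53) and Cdk2 (0.37) were the other two, and Perp, a p53 target of cell junctions, was lower (-0.33, limma adjusted p = 0.029), a gene taken beyond the named 4 largest after its value was seen. The median of the 63 was 0.11 at CT12, beside 0.08 over all tested genes.

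**Figure D5:**
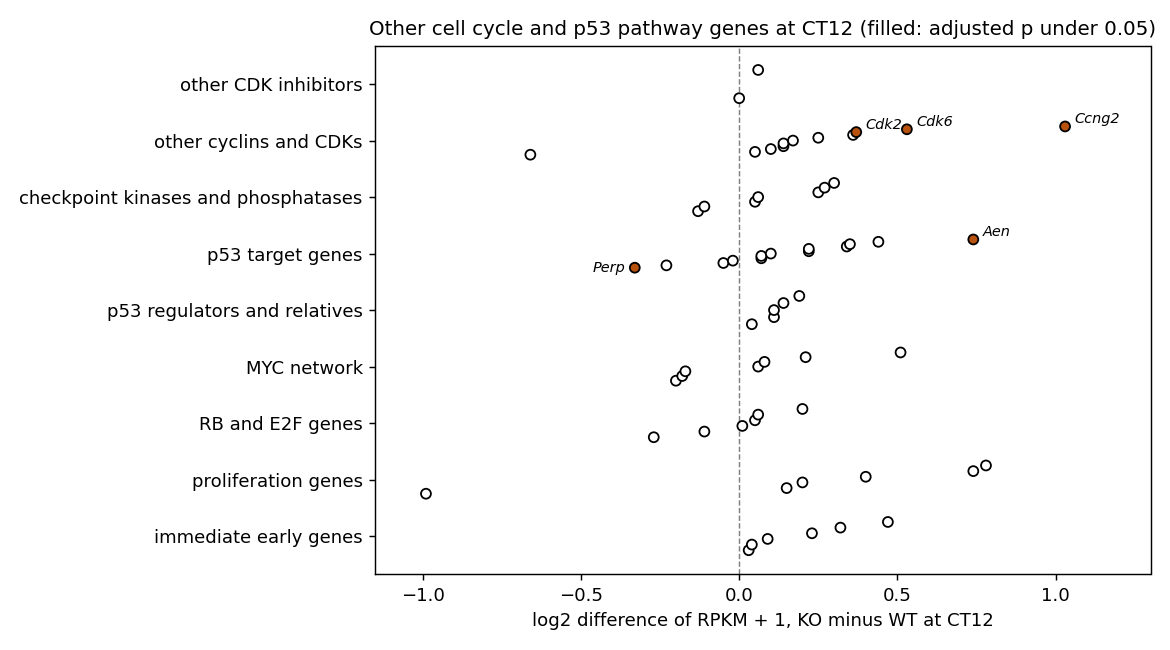
Log2 difference of RPKM + 1 between KO and WT at CT12 (x axis) for the 63 tested pathway genes other than the checkpoint genes themselves, by list (y axis; a gene in several lists is drawn in the first, and height within a list only separates points). Filled points have an adjusted p under 0.05: Ccng2, Aen, Cdk6 and Cdk2 to the right and Perp to the left.

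Among 18 tested p53 targets, a list that includes some of the checkpoint genes, 2 were called higher in KO at CT12 (Cdkn1a and Aen) and 1 lower (Perp), with a median of 0.2, beside 6.97% and 3.49% of all tested genes. The p53 regulators (5 tested), the MYC network (7), the RB and E2F genes (6), the other CDK inhibitors (2), the checkpoint kinases and phosphatases (7), the proliferation genes (7) and the immediate early genes (6) had no gene called between genotypes at either time. Of the 6 other CDK inhibitors listed, only the 2 tested can be compared with Cdkn1a. These were Cdkn1b (0.06) and Cdkn2c (0.0), with a median of 0.03 at CT12, where Cdkn1a was at 2.97. Of 11 tested cyclins and CDKs, 3 were called higher in KO at CT12 and 1 at CT0, where 1.02% of all genes were higher. That gene was Ccne2, cyclin E2, with 0.382, 0.633 and 0.102 RPKM in WT and 1.8, 1.35 and 1.26 RPKM in KO (0.86, limma adjusted p = 0.044). Perp was called lower at CT0 as well (-0.6, adjusted p = 0.0044). Leaving out any of 9 of the 12 libraries, among them each liver at CT0, gave 1 call at CT0 in place of 2. Averaged over both times 5 of the 63 were higher and 1 lower in KO, near or below the 7.44% and 4.03% of all genes, with Mcm6 (0.81), Ccng2 (0.7), Ccne2 (0.56) and Cdk6 (0.47) the largest.

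Over time in WT, 1 of the 63 rose and 4 fell from CT0 to CT12, not above the 3.71% and 7.88% of all genes, and there were 3 calls in place of 5 without WT CT0 replicate 2, WT CT12 replicate 1 or WT CT12 replicate 2. The rise was Ccne1, cyclin E1 (1.23, limma adjusted p = 0.0069), and the largest falls were Egr1 (-1.17), Ccng2 (-1.02) and Bbc3 (-0.84), the gene of the apoptosis inducer PUMA. The WT means at CT0 and CT12 were 0.387 and 2.34 RPKM for Ccne1, 2.12 and 0.375 RPKM for Egr1, and 1.69 and 0.496 RPKM for Bbc3. Each of these was thus under 1 RPKM in WT at 1 of the times and passed the filter through other groups. In KO, Aen rose (1.06, limma adjusted p = 0.023) and Bbc3 fell (-0.72, adjusted p = 0.016), beside 1.1% and 1.32% of all genes. The KO means of Bbc3 were 2.15 RPKM at CT0 and 0.896 RPKM at CT12. There were 0 calls without KO CT0 replicate 3 or KO CT12 replicate 1, and 1 without replicate 2 of either KO group. Aen was thus called in 2 comparisons in which Cdkn1a was called too, KO against WT at CT12 and CT12 against CT0 in KO. Other p53 targets were called with the opposite sign there, Perp (-0.33) in the first and Bbc3 (-0.72) in the second. The interaction of Aen was 0.88 (SE 0.28, limma adjusted p = 0.2), and for Ccng2 the interaction was 0.65 (adjusted p = 0.24). None of the 63 passed the threshold for the interaction in limma (1 did without KO CT0 replicate 2), while 10 had an unadjusted p under 0.05 in an ordinary linear model. Averaged over both genotypes 4 were higher and 4 lower at CT12 (6.08% and 10.5% of all genes), with Plk3 (1.17) and Ccne1 (0.98) the largest rises, and 5 were called in place of 8 without WT CT0 replicate 2, WT CT12 replicate 3, KO CT0 replicate 3 or KO CT12 replicate 1.

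Some markers of other cells moved with the same comparisons. The summed level of the 5 lymphocyte and neutrophil markers was 8.11 to 11.5 RPKM in WT and 20.4 to 39.6 RPKM in KO at CT12. At CT0 it was 31.6 to 96.6 RPKM in WT and 90.2 to 183.0 RPKM in KO. S100a8 and S100a9, of neutrophils, made up most of it and were called higher in KO at CT12 and lower at CT12 than at CT0 in both genotypes. The erythroid list had a median log2 fold change of 0.92 between genotypes at CT12 and 0.27 over time in KO, with no gene called in either. The hepatocyte markers summed to 35900 to 44600 RPKM in WT and 24100 to 27200 RPKM in KO at CT12, with Alb called lower in KO and none of the 6 called higher. Their median log2 fold change was 0.06 at CT12, and the sum is weighted to the most abundant genes. At CT12 no gene of the macrophage (6 tested), endothelial (5), stellate (6), cholangiocyte (3) or erythroid (3) lists was called between genotypes. The macrophage markers summed to 77.5 to 117.0 RPKM in WT and 81.2 to 147.0 RPKM in KO at CT12, the endothelial ones to 36.5 to 38.8 and 30.3 to 63.5, the stellate ones to 94.0 to 110.0 and 118.0 to 153.0, and the erythroid ones to 82.4 to 145.0 and 167.0 to 213.0. The cholangiocyte markers were near their floor, at 0.708 to 2.28 RPKM in WT and 1.34 to 2.43 RPKM in KO, and Krt7 was at 0 in at least 1 library of both groups. Over time, Emr1 of macrophages, Cdh5 of endothelium, Dcn of stellate cells and Krt7 of cholangiocytes were called lower at CT12 in WT, beside 7.88% of all tested genes. None of these lists had a gene called over time in KO, where 1.32% of all tested genes were lower. Averaged over both genotypes, 3 macrophage, 3 endothelial, 3 stellate markers and 1 cholangiocyte marker were called lower at CT12, beside 10.5% of all tested genes. The list medians were -0.46, -0.56, -0.43 and -0.49. The part of these cells in the levels of Cdkn1a, Wee1 and Gadd45a was not tested.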

How the data were processed

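Liver RNA of 12 mice was turned into sequencing libraries (TruSeq RNA v2, a kit that does not mark strand). The authors deposited RPKM values per transcript and sample. The submitters' processing notes name TopHat2, bedtools 2.19.1 and mm9. The annotation behind the values is not given in the sources used here. Groups and replicate numbers came from the sample titles, and no column was left unused. Sample descriptions write ZT where titles write CT.

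For each symbol the transcript with the highest mean RPKM was kept. Genes whose mean reached 1 RPKM in any group were tested on log2(RPKM + 1) with a model of the 4 group means over all 12 libraries (limma 3.58.1, eBayes with trend, R 4.3.3), with Benjamini-Hochberg adjustment over the 10799 tested genes. RPKM are not counts, so no count test was run. Read numbers were recovered from the steps of the values with transcript lengths of GENCODE vM1, where 95.3% to 96.2% of the low values and all 120 values of the checkpoint genes fell within 0.05 of a whole read. Depth limits precision below about 1 RPKM. The fit and the depth recovery were tested on simulated data.

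The genes, lists and named-gene rule were chosen with earlier results of these data known. Named were the 10 genes, the 3 most alike genes by r, of which some are printed, and, of the other lists, the 4 largest called differences per comparison. Positions are those of NCBIM37 and promoter windows those of GRCm38.p6, and these builds were not mixed. Figures were drawn with Python 3.11.15, pandas 2.3.3 and matplotlib 3.10.9.

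Alternatives were a pseudocount of 0.1, no filter, 1 RPKM in every library, quantile normalization, summed or separate transcripts, an ordinary model, only the 6 libraries compared, a replicate block, and leaving out each library.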

Additional observations from a re-analysis of the deposited data

Results flagged for a closer look

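Differences between genotypes that depended on time, by the interaction term of the fit in limma, were found for the checkpoint genes Cdkn1a and Wee1 and for Arntl, the targeted gene. Of the other clock genes listed, Npas2, Clock, Per2, Per3 and Dbp were called for the interaction as well. Cdkn1a had an interaction of 2.77 (SE 0.47, adjusted p = 0.012), with a difference of 2.97 at CT12 and 0.19 at CT0. Wee1 had -2.0 (SE 0.27, adjusted p = 0.0031), with -1.24 at CT12 and 0.76 at CT0. Arntl had 2.5 (SE 0.18, adjusted p = 7.2e-05), with 1.29 at CT12 and -1.21 at CT0. No group held more than 3 livers, so single livers were not tested as outliers.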

How the results depend on the processing

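Each group held 3 livers, and as few as 7 reads for Cdkn1a in WT at CT12 or 12 reads for Gadd45a in KO stood behind a value. The calls for Cdkn1a and Wee1 between genotypes at CT12, for Wee1 over time in WT, for both interactions and for Gadd45a averaged over both times held in every alternative that tested the gene. The log2 fold change of Cdkn1a at CT12 ran from 2.73 to 4.11 over them and that of Wee1 from -1.53 to -1.07.

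A filter of 1 RPKM in every library removed Cdkn1a, Wee1 and Gadd45a, so 0 checkpoint genes were called in the 6 comparisons in which any had been. At CT0, 1 gene (Wee1) was called between genotypes with a pseudocount of 0.1 (adjusted p = 0.048), with quantile normalization (adjusted p = 0.048) and in an ordinary linear model with unadjusted p-values. That ordinary model called 2 genes over time in WT, 2 in KO and 3 averaged over both genotypes, in place of 1 each. With only the 6 libraries compared, 0 were called over time in KO (Cdkn1a, adjusted p = 0.058). Gadd45a at CT12 was also called with a pseudocount of 0.1, quantile normalization, all transcripts and only the 6 libraries (adjusted p = 0.04 to 0.049).

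Leaving out 1 library at a time gave 0 to 1 genes between genotypes at CT0 and 1 to 2 over time averaged over both genotypes. The sign changed only for values that were not called: Cdkn1a between genotypes at CT0 ran from -0.22 to 0.43, and Wee1 over time in KO from -0.18 to 0.21.

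With the replicate number as a replicate block, no call among the 10 genes changed (Cdkn1a at CT12, adjusted p = 0.00037, and Wee1, 0.0039). Same-numbered libraries deviated from their group means with a mean correlation of 0.008 (range -0.066 to 0.139). For libraries with differing numbers it was -0.004 (range -0.188 to 0.114). Between WT and KO at CT12 the correlation was 0.001 for replicate 1, 0.139 for replicate 2 and 0.129 for replicate 3. At CT0 it was 0.031, 0.051 and -0.059. A mean over all same-numbered pairs cannot decide whether the numbers paired samples within a single time, and such pairing was not tested. Over all tested genes, the 201 calls between genotypes at CT0 became 114 without a filter, 117 with 1 RPKM in every library, 105 with only the 6 libraries and 1495 in the ordinary model. The 262 calls over time in KO became 161 without a filter, 26 with only the 6 libraries and 2052 in the ordinary model. With 1 library left out the calls over all genes ran from 76 (without WT CT0 replicate 2) to 208 between genotypes at CT0, from 728 (without WT CT12 replicate 3) to 1279 at CT12, from 660 (without WT CT12 replicate 3) to 1394 over time in WT, from 65 (without KO CT12 replicate 1) to 260 over time in KO, and from 87 (without WT CT0 replicate 2) to 146 for the interaction (161 with all). In the other comparisons the ordinary model gave 1323 to 3329 calls, and separate transcripts gave 426 to 4649 calls over all 7.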
